A study of Homo sapiens with 51 samples.

Results

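After 6 h of treatment, H1 cells given BMP4 alone were set against H1 cells given Activin together with a lower dose of BMP4. H1 is a long-established line of human embryonic stem cells. The comparison uses 6 of the 51 RNA-seq libraries of a time course, 3 per condition, chosen by their labelled treatment and time and not by any measured value. The first condition received BMP4 at 50 ng/mL. The second received Activin at 100 ng/mL and BMP4 at 10 ng/mL. In both, the basal medium was TeSR E5 with insulin at 3.2 µM, FGF2 at 20 ng/mL and 1 µM of LY29004, as the labels spell that compound. A further group of 3 libraries, used here as the background, came from untreated cells at 0 h in mTeSR1 on Matrigel, so a difference from untreated cells also spans a change of medium. Because the conditions differ in Activin and in the dose of BMP4, the share of each in a difference cannot be told apart. All cells came from a single line. Replicates are numbered in the labels without mention of separate cultures. The p-values then cover only the spread among replicate libraries, estimated over all 51 libraries, and that spread may be technical.

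Activin and NODAL bind the same pair of receptor types, and the activated receptors phosphorylate SMAD2 and SMAD3, which enter the nucleus with SMAD4 and partners such as FOXH1. BMP ligands act through other type I receptors and phosphorylate SMAD1, SMAD5 and SMAD9. In the gastrula, and in pluripotent cells in culture, the first branch is known for primitive streak and endoderm genes and for its own feedback inhibitors LEFTY1, LEFTY2 and CER1, and the second for ID genes, GATA factors and genes of the amnion and extraembryonic mesoderm.

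The promoters of 4 genes that differed at 6 h are shown because they cover both directions of change: NODAL, the ligand, CER1, a secreted inhibitor of NODAL and BMP, and MIXL1, a homeobox gene of the streak, which were lower with BMP4, and INHBB, which encodes an Activin subunit and was higher. Each run holds the 250 bases before the RefSeq start (GRCh38.p14), 5′ to 3′ on the gene's strand. They lie at chr10:70441682-70441931 on the minus strand (NODAL), chr9:14722734-14722983 on the minus strand (CER1), chr1:226223414-226223663 on the plus strand (MIXL1) and chr2:120345886-120346135 on the plus strand (INHBB). Capitals mark CAGAC or its reverse complement GTCTG, the core of the SMAD3 and SMAD4 motif, AATCCACA or TGTGGATT, the FOXH1 motif, and, in INHBB, GGCGCC, a GC-rich SMAD motif.
NODAL: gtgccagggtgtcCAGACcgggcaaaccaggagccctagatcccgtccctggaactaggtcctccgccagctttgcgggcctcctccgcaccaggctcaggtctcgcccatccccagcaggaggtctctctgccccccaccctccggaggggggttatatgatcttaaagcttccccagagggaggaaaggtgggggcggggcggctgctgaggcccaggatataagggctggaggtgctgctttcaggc
CER1: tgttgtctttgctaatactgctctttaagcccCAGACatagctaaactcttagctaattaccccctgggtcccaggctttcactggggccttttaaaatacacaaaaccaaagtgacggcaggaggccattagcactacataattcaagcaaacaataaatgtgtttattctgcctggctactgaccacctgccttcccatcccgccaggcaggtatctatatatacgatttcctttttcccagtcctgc
MIXL1: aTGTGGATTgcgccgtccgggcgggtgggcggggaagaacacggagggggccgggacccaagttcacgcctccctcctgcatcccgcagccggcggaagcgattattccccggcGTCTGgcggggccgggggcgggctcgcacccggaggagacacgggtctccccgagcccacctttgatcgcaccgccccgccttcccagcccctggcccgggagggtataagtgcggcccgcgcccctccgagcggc
INHBB: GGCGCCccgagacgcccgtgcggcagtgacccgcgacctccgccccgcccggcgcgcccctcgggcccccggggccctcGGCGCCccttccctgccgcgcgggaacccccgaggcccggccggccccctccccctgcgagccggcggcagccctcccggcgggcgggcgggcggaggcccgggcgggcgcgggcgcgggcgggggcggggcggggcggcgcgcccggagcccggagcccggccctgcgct

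Searched on both strands, CAGAC was in 17 of the 41 promoters found for genes lower with BMP4 (41.5%), in 7 of 26 for genes higher with BMP4 (26.9%) and in 37.8% of all 27305 RefSeq promoters of that length. AATCCACA was in 1 of 41 (2.44%), 1 of 26 (3.85%) and 0.681%. GGCGCC, which is its own reverse complement, was in 10 of 41 (24.4%), 11 of 26 (42.3%) and 16.1%, beside a median GC content of 62.0%, 68.6% and 58.0% in the same 3 sets. The part of GC content in these shares was not tested. The 3 motifs overlap in no base of the 4 promoters shown. A match describes the letters of the window and is no measurement of binding. The promoters of LEFTY1, LEFTY2, FGF8 and NOG were not in the table used.

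The libraries held 26.6 M to 29.4 M counts with BMP4, 26.8 M to 29.3 M with Activin+BMP4 and 24 M to 25.2 M in untreated cells. Levels are CPM, counts scaled to a common library total with TMM factors (trimmed mean of M-values), and are given per library in the order of replicates 1, 2 and 3 or as mean ± SD over n = 3. Correlations of log2 CPM between replicates of these groups ran from 0.9901 to 0.9911. Chi-square per degree of freedom, a measure of the spread in counts between replicates, was higher with BMP4. It was 4.85 to 7.96 with BMP4, 2.14 to 3.39 with Activin+BMP4 and 1.96 to 2.64 in untreated cells. Within Activin+BMP4, replicate 1 was the highest library for 36.4% of all tested genes, for 37 of the 62 genes lower with BMP4 (59.7%) and for 16 of the 19 BMP target genes (84.2%). Mitochondrially encoded genes took 2.03% ± 0.301 of counts with BMP4, 2.8% ± 0.0208 with Activin+BMP4 and 2.46% ± 0.255 in untreated cells. None of the 13 passed edgeR's adjusted test, 7 had an unadjusted p under 0.05 and their median log2 fold change was -0.50, although for all 13 every BMP4 library was below every Activin+BMP4 library. Over all tested genes 20.9% had no overlap between the conditions and 13.1% had an unadjusted p under 0.05. The part of the mitochondrial genes in the results was not tested. These are bulk libraries, so fewer cells that express a gene and less RNA per cell cannot be told apart.

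At 6 h, 99 of 19603 tested genes were called between the conditions (0.505%), 62 lower with BMP4 (0.316%) and 37 higher (0.189%). The call required an adjusted p under 0.05 (edgeR's quasi-likelihood test, Benjamini-Hochberg) together with a 2-fold or larger difference. Without the fold limit 788 genes passed (4.02%), 472 lower (2.41%) and 316 higher (1.61%), so most differences were smaller than 2-fold. The median log2 fold change over all genes was 0.001. The median was -1.39 over the lower calls and 1.44 over the higher calls, as a description of genes chosen by that value. Change of 4-fold or more was seen for 20 lower and 9 higher genes, and of the called genes 86 were protein coding. Low levels were common: 42 of the 99 had under 2 CPM in the condition where they were higher, and those at 2 CPM or more were 42 of the 62 lower and 15 of the 37 higher genes. The threshold cuts a continuum, with CAVIN3 at -1.001, CCL2 at -1.006 and KCNK13 at 1.022 just inside it and CCNG2 at -0.9944, FAT4 at -0.99 and CYP1B1 at 0.9837 just outside.

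**Figure D1:**
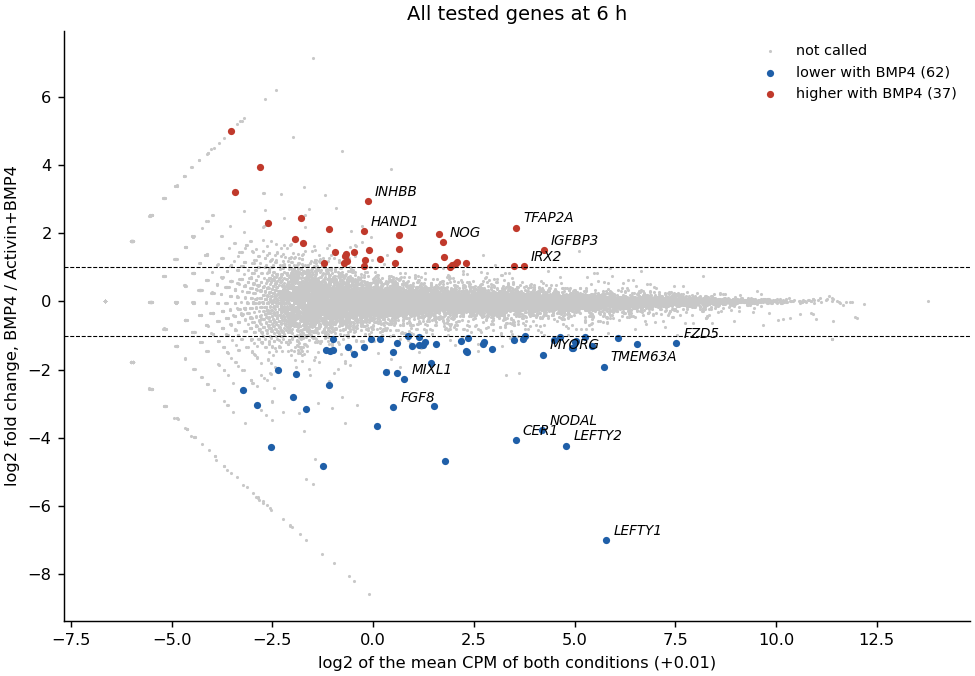
Each point is a tested gene, with the log2 of its mean CPM over the 6 libraries (plus 0.01) on the x axis and the log2 fold change of BMP4 over Activin+BMP4 at 6 h on the y axis, and dashed lines mark a 2-fold change. The 62 genes called lower (blue) reach -7.0 for LEFTY1, and the 37 called higher (red) are mostly at lower levels.

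NODAL and the secreted inhibitors LEFTY1, LEFTY2 and CER1 were among the genes furthest apart, all of them lower with BMP4. Of 12 tested genes for NODAL and Activin ligands, co-receptors and secreted inhibitors, 4 were called lower and 2 higher, against a background of 0.316% and 0.189% of all genes, with a median of -0.20. The same background applies to every later list, with 2.41% lower and 1.61% higher where the fold limit is left out. The lists were chosen with earlier results of these data known, so their shares are a description and no independent test. LEFTY1 (ENSG00000243709, chr1:225886282-225911382, minus strand), an inhibitor that binds NODAL and its co-receptors, had 0.734, 0.916 and 0.9 CPM under BMP4 and 119, 107 and 102 CPM under Activin+BMP4. Untreated cells lay between them, at 8.2, 7.48 and 6.58 CPM. The conditions were 128-fold apart, a log2 fold change of -7.0 ± 0.17 (edgeR quasi-likelihood adjusted p = 5.99e-30). For this and all later log2 fold changes, the value after ± is their size divided by the square root of the test's F statistic. It is an approximate error and not a fitted standard error, and it may be too small for large fold changes.

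LEFTY2, the paralogue of LEFTY1, had 2.6, 2.82 and 2.98 CPM under BMP4 and 51.2, 52.4 and 53.7 CPM under Activin+BMP4, with 5.34, 4.75 and 5.28 CPM in untreated cells. All 3 BMP4 libraries were below every untreated library and the Activin+BMP4 libraries far above, a log2 fold change of -4.23 ± 0.17 between conditions (edgeR adjusted p = 1.21e-22). LEFTY1 and LEFTY2 are near-identical in part: 26.8% of the 50-base words of the LEFTY1 transcripts occur in LEFTY2, and 20.7% of those of LEFTY2 in LEFTY1. Each also shares exon sequence with another annotated gene on its strand. How reads that fit both were divided is not given in the sources used here, so the separate values are uncertain in so far as reads moved between them.

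NODAL itself (ENSG00000156574, chr10:70432315-70447951, minus strand) had 2.37, 2.6 and 2.49 CPM under BMP4 and 36.3, 33.8 and 32 CPM under Activin+BMP4. Untreated cells had 10.5, 10.5 and 9.89 CPM, so the ligand fell in the BMP4 condition and rose in the other. The log2 fold change between conditions was -3.77 ± 0.15 (edgeR adjusted p = 2.05e-22). NODAL shares exon sequence with AC022532.1 on the opposite strand, and without the strand setting their reads cannot be told apart. CER1 had 0.967, 1.68 and 1.28 CPM under BMP4 and 22.7, 23.2 and 19.9 CPM under Activin+BMP4, against 4.02, 4.3 and 4.07 CPM in untreated cells. No library of any group overlapped another group, and the log2 fold change was -4.07 ± 0.16 (edgeR adjusted p = 1.21e-22).

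The subunits of the Activin and inhibin ligands lay on the other side. INHBB (ENSG00000163083, chr2:120346143-120351808, plus strand), the beta B subunit, had 1.5, 1.87 and 1.42 CPM under BMP4 and 0.221, 0.136 and 0.258 CPM under Activin+BMP4. Every BMP4 library exceeded the untreated ones, at 0.482, 0.0402 and 0.545 CPM, while the other condition overlapped them. The log2 fold change between conditions was 2.94 ± 0.48 (edgeR adjusted p = 3.15e-05). INHBA, the beta A subunit, had 4.17, 4.25 and 3.32 CPM under BMP4, 1.59, 2.17 and 1.88 CPM under Activin+BMP4 and 4.86, 5.39 and 5.45 CPM in untreated cells. It was lowest with Activin+BMP4, and at 1.05 ± 0.20 (edgeR adjusted p = 3.83e-04) it stood close to the fold limit: without Activin+BMP4 replicate 1 it was 0.95, and without BMP4 replicate 2 it was 1.00 and just under the limit.

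Among the remaining secreted and surface members, FST, which traps Activin, was at 18.6 ± 1.87 CPM under BMP4 and 26.4 ± 3.82 CPM under Activin+BMP4, a log2 fold change of -0.51 that passed the test under 2-fold (edgeR adjusted p = 0.00295). GDF3, another ligand of the branch, was at -0.34 (edgeR adjusted p = 0.0254). The co-receptor TDGF1 was at 725 ± 22.7 and 761 ± 13.2 CPM, with an adjusted p of 0.215 by edgeR. CFC1, FSTL3 and GDF1 also missed the threshold, with log2 fold changes of 0.57, 0.10 and 0.89, and the GDF1 libraries with Activin+BMP4 ran from 0 to 1.32 CPM. DAND5 did not pass the filter on low counts.

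The receptors and the SMADs that receive the signal showed smaller differences. Of 19 tested genes for Activin and NODAL receptors, SMADs, partners and intracellular inhibitors, 2 were called lower and 0 higher, and 4 were lower without the fold limit, with a median of -0.03. PMEPA1, which sequesters SMAD2 and SMAD3, had 24.7, 25.6 and 24.3 CPM under BMP4 and 67.8, 60.3 and 58.5 CPM under Activin+BMP4. The BMP4 libraries were just below the untreated ones at 29.2, 26.9 and 27.9 CPM, and the log2 fold change between conditions was -1.32 ± 0.08 (edgeR adjusted p = 1.54e-16). PMEPA1 shares exon sequence with NKILA on the opposite strand, and without the strand setting their reads cannot be told apart.

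SMAD3 had 15.1, 13 and 13.8 CPM under BMP4, 34.2, 29.3 and 28.7 CPM under Activin+BMP4 and 15.2, 15.7 and 16.3 CPM in untreated cells. The BMP4 libraries were just below every untreated library, and the log2 fold change was -1.14 ± 0.069 (edgeR adjusted p = 1.76e-16). SMAD3 likewise shares exon sequence with a gene on the opposite strand, AC087482.1. Its close relative SMAD2 was at 107 ± 1.77 and 118 ± 3.39 CPM, a log2 fold change of -0.14 that missed the threshold (edgeR adjusted p = 0.127). SMAD7, an inhibitory SMAD that acts on both branches, had 44.1, 47.5 and 42.3 CPM under BMP4, 66, 58 and 56 CPM under Activin+BMP4, and 14 to 14.7 CPM in untreated cells. It rose in both conditions, by 1.63 and 2.06 on the log2 scale, and the difference between them was -0.43 ± 0.075 (edgeR adjusted p = 1.09e-04).

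LDLRAD4, a membrane inhibitor of SMAD2 and SMAD3, was lower at -0.94 (edgeR adjusted p = 0.00277). The receptors ACVR1B, ACVR1C, ACVR2A, ACVR2B, TGFBR1, TGFBR2 and TGFBR3 had log2 fold changes from -0.27 to 0.07 and none passed the threshold. SMAD4 was at 0.04, FOXH1 at 0.04 and the corepressors SKI and SKIL at -0.02 and -0.17, also without passing. TGIF1 and TGIF2 were at 0.14 and -0.11, and DRAP1 at 0.04, likewise.

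**Figure D2:**
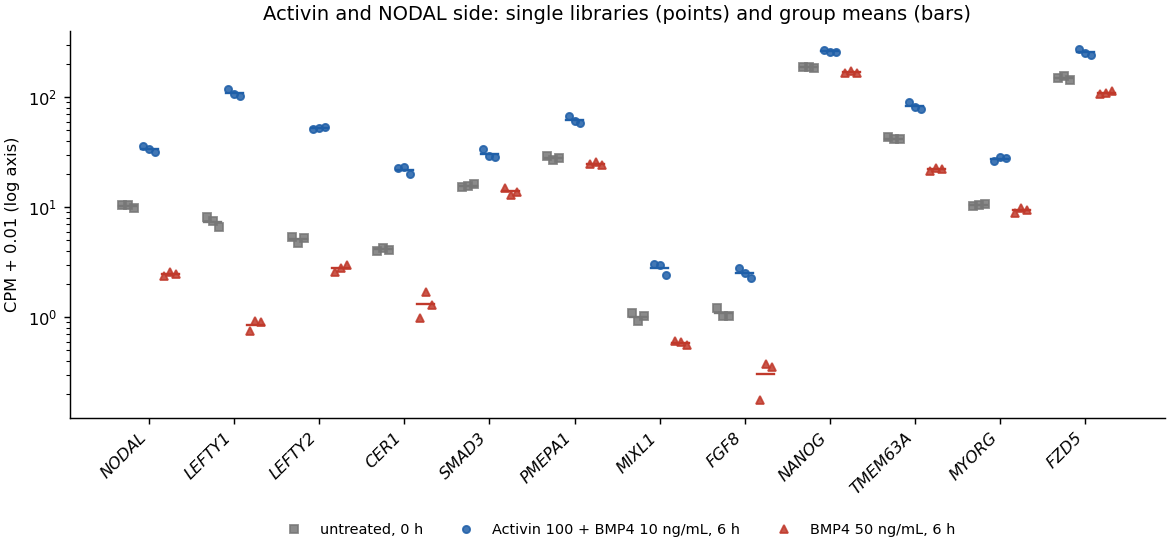
CPM plus 0.01 on a log axis for 12 genes of the Activin and NODAL branch or lower with BMP4, with a point for each library and a bar for the mean of each group of 3. The BMP4 libraries (red) lie below all Activin+BMP4 libraries (blue) and below all untreated libraries (grey) for each gene. The gap to untreated cells is narrow for SMAD3, PMEPA1, MYORG and NANOG.

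The streak genes that were called lay in the direction of NODAL. Of 20 tested streak genes, 3 were called lower with BMP4 and 0 higher, with a median of -0.15. MIXL1, a homeobox factor of the streak, had 0.6, 0.586 and 0.554 CPM under BMP4, 3.06, 2.98 and 2.43 CPM under Activin+BMP4 and 1.08, 0.925 and 1.01 CPM in untreated cells. The groups did not overlap and the log2 fold change was -2.28 ± 0.23 (edgeR adjusted p = 7.4e-10). FGF8, a growth factor of migrating streak cells, had 0.167, 0.366 and 0.346 CPM against 2.77, 2.51 and 2.28 CPM, with 1.21, 1.01 and 1.01 CPM in untreated cells. It was lowest in the BMP4 libraries, a log2 fold change of -3.10 ± 0.24 (edgeR adjusted p = 3.56e-13).

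The third streak call, WNT8A, rested on few reads, at 0.0706 ± 0.0693 and 0.298 ± 0.0737 CPM. Its log2 fold change of -2.02 (edgeR adjusted p = 0.0344) missed the threshold when any of 4 libraries was left out, with an adjusted p of 0.103 without Activin+BMP4 replicate 2, 0.16 without Activin+BMP4 replicate 3, 0.256 without BMP4 replicate 1 and 0.111 without BMP4 replicate 2. WNT3, the streak-inducing WNT ligand, was at 7.58 ± 0.541 and 14 ± 1.28 CPM, a log2 fold change of -0.88 (edgeR adjusted p = 5.05e-08), and exceeded the 1.81 to 2.65 CPM of untreated cells in both conditions. TBXT, the gene of the factor brachyury, was at 0.0344 and 0.191 CPM, close to the lowest level that could be tested, with an edgeR adjusted p of 0.28.

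Of 18 definitive endoderm genes, CER1 was called lower and HHEX and GATA6 higher, with a median of -0.03. HHEX, a homeobox factor of early endoderm and blood, was at 4.81 ± 0.308 CPM under BMP4 and 1.93 ± 0.744 CPM under Activin+BMP4, a log2 fold change of 1.31 ± 0.22 (edgeR adjusted p = 4.74e-05). GATA6, which mesoderm also uses, was under 1 CPM in every library and at 2.12 ± 0.52 (edgeR adjusted p = 0.00828), or 1.73 with an adjusted p of 0.0884 without Activin+BMP4 replicate 2. SOX17, the defining endoderm factor, was at 0.0482 CPM under BMP4 and 0.0113 CPM under Activin+BMP4 and was not called.

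The named rule also took genes with no assigned branch. TMEM63A, an ion channel gene and the neighbour of LEFTY1 on its chromosome, had 21.4, 22.8 and 22.1 CPM under BMP4, 90, 81 and 79.1 CPM under Activin+BMP4 and 43.2, 41.4 and 41.7 CPM in untreated cells. It lay below untreated cells in one condition and above in the other, with a log2 fold change of -1.92 ± 0.076 between them (edgeR adjusted p = 1.21e-22), and it shares exon sequence with EPHX1 on the opposite strand. MYORG, a glycosidase gene, had 8.94, 9.82 and 9.39 CPM under BMP4, 26.3, 28.5 and 28 CPM under Activin+BMP4 and 10.3 to 10.7 CPM in untreated cells. Here the BMP4 libraries stayed close to untreated cells, and the log2 fold change was -1.56 ± 0.081 (edgeR adjusted p = 9.82e-19).

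HAS2, the hyaluronan synthase, had 2.03, 2.93 and 3.01 CPM under BMP4 against 6.6, 7.76 and 7.63 CPM under Activin+BMP4 and 6.19, 5.43 and 5.12 CPM in untreated cells, so the BMP4 libraries lay below every untreated library and the Activin+BMP4 libraries above. Against untreated cells the log2 fold changes were -1.07 and 0.39. The log2 fold change between conditions was -1.47 ± 0.17 (edgeR adjusted p = 1.64e-08), and HAS2 overlaps HAS2-AS1 on the opposite strand. FILIP1L was at -2.10, the lysophosphatidic acid receptor gene LPAR6 at -1.80, NRTN, a neurotrophic ligand of the GDNF family, at -1.49 and ERVH48-1, an endogenous retroviral envelope gene, at -1.40. FAM157C, at -1.44, shares 32.7% of its 50-base words with FAM157A and is uncertain, and it missed the threshold without BMP4 replicate 1 (edgeR adjusted p = 0.0624) or replicate 2 (0.0953).

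On the BMP side the calls were the antagonist genes NOG and CHRD. Of 14 tested BMP ligands and secreted antagonists, 0 were called lower and 2 higher, with a median of 0.10. NOG (ENSG00000183691, chr17:56593699-56595590, plus strand), which encodes the BMP antagonist noggin, had 5, 4.98 and 5.23 CPM under BMP4 and 1.77, 1.39 and 1.44 CPM under Activin+BMP4, and untreated cells had 0, 0.0402 and 0.126 CPM. It rose in both conditions and more with BMP4 at 50 ng/mL, the log2 fold change between conditions being 1.73 ± 0.26 (edgeR adjusted p = 7.87e-06). CHRD, the gene of the antagonist chordin, was at 1.13 ± 0.158 and 0.55 ± 0.169 CPM, a log2 fold change of 1.03 (edgeR adjusted p = 0.0332). That call was lost without Activin+BMP4 replicate 1 (0.86, adjusted p 0.189), Activin+BMP4 replicate 2 (0.98, 0.139), BMP4 replicate 2 (0.94, 0.151) or BMP4 replicate 3 (1.03, 0.0791), and CHRD overlaps THPO on the opposite strand.

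The ligand genes BMP2, BMP4, BMP6 and BMP7 had log2 fold changes of -0.01, -0.08, 0.06 and 0.26 and none passed the threshold. GREM1, another antagonist, was at 23.8 ± 1.15 CPM under BMP4, 18.3 ± 3.18 CPM under Activin+BMP4 and 4.07 to 5.62 CPM in untreated cells, with an edgeR adjusted p of 0.228 between conditions. BMPER, CHRDL1, TWSG1 and SOSTDC1 were at 0.38, 0.10, 0.10 and -0.54 and did not pass. GDF6 was at 1.08, with BMP4 replicate 2, at 0.0733 CPM, below all Activin+BMP4 libraries, and passed only without that library (1.54, edgeR adjusted p = 0.0496). BMP5 was near 0 counts throughout and SOST was not tested.

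Of 14 BMP receptors, SMADs and intracellular inhibitors, none was called at 2-fold by edgeR or DESeq2, and 4 were lower and 2 higher without the fold limit (7 at an unadjusted p under 0.05), with a median of -0.05. BMPR2, the type II receptor, was at 38.4 ± 1.31 CPM under BMP4 and 56.6 ± 3.80 CPM under Activin+BMP4, a log2 fold change of -0.56 (edgeR adjusted p = 1.86e-05). ACVR1 and SMURF1, a type I receptor and a ubiquitin ligase for SMADs, were at -0.26 and -0.20 and also passed. SMAD6, the inhibitory SMAD of the BMP branch, had 41.9, 43.6 and 43.6 CPM under BMP4, 42.2, 30.3 and 31.7 CPM under Activin+BMP4 and 3.74 to 4.49 CPM in untreated cells. Activin+BMP4 replicate 1 overlapped the BMP4 libraries, and the log2 fold change was 0.31 ± 0.086 (edgeR adjusted p = 0.0267). SMAD9, which carries the signal, was at 13.8 ± 0.588 and 10.3 ± 1.74 CPM (0.41, edgeR adjusted p = 0.0229) and at 0.755 to 1.37 CPM in untreated cells. BAMBI, a decoy receptor, was at 0.19 and did not pass. SMAD1, SMAD5, BMPR1A, BMPR1B and SMURF2 ran from -0.31 to 0.04 and did not pass either.

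Of 19 tested transcription factor genes known to respond to BMP, 6 were called higher with BMP4 and 0 lower, against 0.189% and 0.316% of all genes. Without the fold limit 12 passed as higher and 1 as lower, against 1.61% and 2.41%, and the median was 0.90. Without Activin+BMP4 replicate 3 the called number was 3. ID1, an inhibitor of basic helix-loop-helix factors and a direct BMP target, had 473, 525 and 501 CPM under BMP4, 538, 474 and 440 CPM under Activin+BMP4 and 80.6, 81.5 and 84.9 CPM in untreated cells. Its conditions overlapped, with a log2 fold change of 0.05 ± 0.073 and an edgeR adjusted p of 0.889. ID3, of the same family, had 349, 372 and 379 CPM under BMP4, 251, 206 and 195 CPM under Activin+BMP4 and 67.1 to 70.4 CPM in untreated cells. Its conditions did not overlap, and the log2 fold change was 0.76 ± 0.069 (edgeR adjusted p = 5.33e-11). ID2 and ID4 were at 0.54 and 0.55 and passed as well.

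GATA3, a transcription factor of amnion and trophectoderm, had 31.7, 30.2 and 30.8 CPM under BMP4 and 23.5, 17.2 and 15.5 CPM under Activin+BMP4, from 0.321 to 0.713 CPM in untreated cells. It rose in both conditions, and between them the log2 fold change was 0.72 ± 0.12 (edgeR adjusted p = 6.62e-05). GATA2, its paralogue, had 25.6, 26.3 and 26.8 CPM against 17.8, 12.8 and 11.6 CPM, with 0.281 to 0.684 CPM in untreated cells. At 0.90 ± 0.14 (edgeR adjusted p = 9.9e-06) it stayed under the fold limit, which it passed without Activin+BMP4 replicate 1 (1.10), the highest library of that condition. MSX2, a homeobox target of BMP, was at 11.4 ± 0.760 and 6.67 ± 1.36 CPM and at 0.78 ± 0.13 (edgeR adjusted p = 6.14e-05).

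The 6 called members were present at under 2 CPM on average. HAND1, a helix-loop-helix factor of extraembryonic mesoderm and heart, had 1.43, 1.28 and 1.35 CPM under BMP4 and 0.332, 0.271 and 0.368 CPM under Activin+BMP4, a log2 fold change of 2.06 ± 0.34 (edgeR adjusted p = 3.77e-05). TBX3, a T-box factor, was at 1.37 ± 0.245 and 0.483 ± 0.164 CPM (1.52, adjusted p 0.00127), and ATOH8 was at 1.56 ± 0.208 and 0.66 ± 0.116 CPM (1.24, adjusted p 6.41e-04). For both the BMP4 libraries lay above every other one. The homeobox genes DLX3, DLX5 and DLX6 were called at 1.83, 1.72 and 1.32, and each call was lost without some library. DLX6 had an adjusted p of 0.0789 without Activin+BMP4 replicate 3. DLX5 had 0.0748 without that library and 0.247 without BMP4 replicate 2. DLX3 had 0.234 and 0.212 without Activin+BMP4 replicates 2 and 3 and 0.13 and 0.0803 without BMP4 replicates 1 and 2. HEY1, a Notch and BMP effector, went the other way at 10.4 ± 0.720 and 18.1 ± 3.37 CPM, a log2 fold change of -0.80 (edgeR adjusted p = 9.28e-06). DLX1, DLX2, DLX4, MSX1 and NKX2-5 were all under 1 CPM and did not pass.

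**Figure D3:**
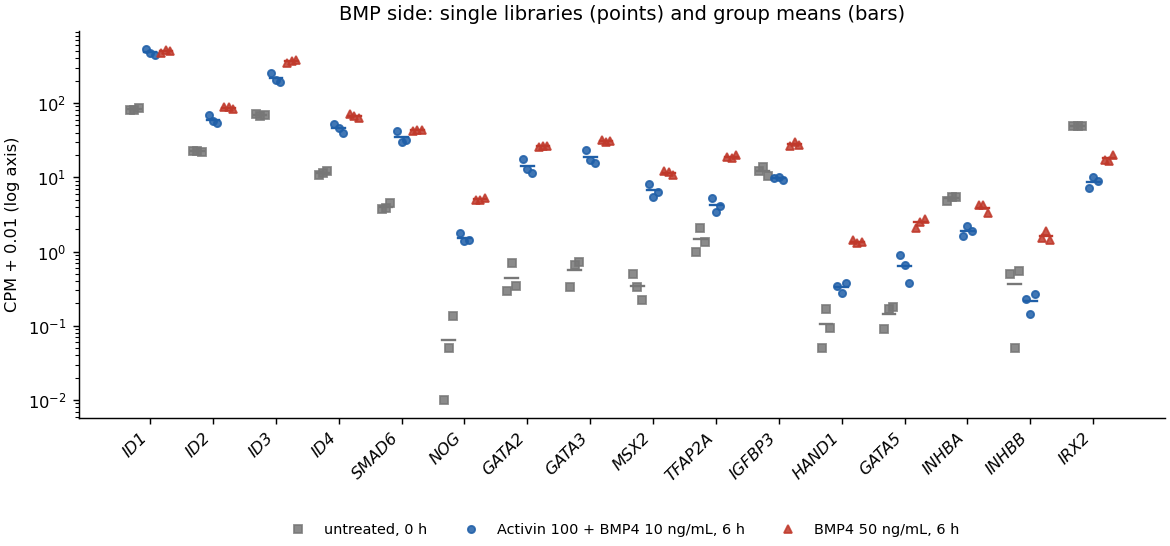
CPM plus 0.01 on a log axis for 16 genes of the BMP branch or higher with BMP4, with a point for each library and a bar for the mean of each group of 3. ID1 overlaps between the conditions, TFAP2A and NOG are separated, and IRX2 is highest in untreated cells at 48.6 to 49.2 CPM.

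Of 20 tested genes of amnion and surface ectoderm, 5 were called higher with BMP4 and 0 lower, against 0.189% and 0.316% of all genes. Without the fold limit 10 passed as higher and 0 as lower, against 1.61% and 2.41%, and the median was 0.64. The called number was 3 without Activin+BMP4 replicate 3. TFAP2A (ENSG00000137203, chr6:10393186-10419659, minus strand), a transcription factor of surface ectoderm and amnion, had 18.8, 18.3 and 19.9 CPM under BMP4, 5.31, 3.35 and 4.13 CPM under Activin+BMP4 and 0.964, 2.05 and 1.34 CPM in untreated cells. The 3 groups did not overlap and the log2 fold change was 2.16 ± 0.15 (edgeR adjusted p = 1.9e-14), with TFAP2A-AS1 and TFAP2A-AS2 overlapping its exons on the opposite strand. IGFBP3, which binds insulin-like growth factors, had 26.6, 30 and 27.2 CPM under BMP4, 9.89, 10.2 and 9.32 CPM under Activin+BMP4 and 10.5 to 13.8 CPM in untreated cells. Only its BMP4 libraries left the untreated range upwards, with a log2 fold change of 1.51 ± 0.11 (edgeR adjusted p = 2.05e-14).

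GRHL3, an epithelial transcription factor, was at 15.2 ± 0.454 and 7.49 ± 0.994 CPM, a log2 fold change of 1.03 ± 0.12 (edgeR adjusted p = 1.57e-08), which was 0.96 without Activin+BMP4 replicate 2 and 0.98 without Activin+BMP4 replicate 3. TFAP2C, the paralogue of TFAP2A, was at 0.56 (edgeR adjusted p = 1.73e-05). HAND1 and DLX5, given above, are also in this list. WNT6, an amnion ligand, had 0 counts in all 6 libraries. Trophoblast markers were measured beside these genes: of 18, 9 were tested and none was called by edgeR or DESeq2 (2 at an unadjusted p under 0.05). Without the fold limit 1 passed as lower and 1 as higher. GCM1, SIGLEC6 and PSG1 had 0 counts at 6 h. The summed level of the list was 121 CPM in each BMP4 library to 3 digits against 128 to 133 CPM under Activin+BMP4.

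Lateral plate and extraembryonic mesoderm genes had 4 of 17 called higher and 0 lower, with a median of 0.78, and their summed level was 23.3 to 24.9 CPM under BMP4 and 13.7 to 17.8 CPM under Activin+BMP4. The called genes were HAND1, GATA5, TBX3 and GATA6, of which HAND1 and TBX3 also count among the BMP targets. GATA5, a zinc finger factor of heart and endoderm, had 2.1, 2.53 and 2.77 CPM under BMP4, 0.885, 0.644 and 0.368 CPM under Activin+BMP4 and 0.0804 to 0.168 CPM in untreated cells. Its groups did not overlap, and the log2 fold change was 1.95 ± 0.24 (edgeR adjusted p = 1.29e-07). EBF3, a helix-loop-helix factor of mesoderm and neurons, had 4.97, 5.24 and 4.68 CPM under BMP4 and 1.22, 1.22 and 1.33 CPM under Activin+BMP4. Untreated cells had 0.201 to 0.461 CPM, and the log2 fold change was 1.98 ± 0.22 (edgeR adjusted p = 5.89e-09). Of endothelial and blood genes 10 of 15 were tested and none was called by edgeR or DESeq2 (4 at an unadjusted p under 0.05). Without the fold limit 0 passed as lower and 2 as higher. PECAM1, TAL1 and GATA1 were below the filter and HBZ was at 0 counts.

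Further named genes higher with BMP4 lay nearer to the fold limit. GJD2, a gap junction gene, was at 5.83 ± 0.316 and 2.61 ± 0.780 CPM and KLHL14 at 6.76 ± 0.489 and 3.07 ± 0.183 CPM. UBE2QL1 was at 1.10, or 0.99 without Activin+BMP4 replicate 2 and 0.97 without Activin+BMP4 replicate 3. KCNK13, a potassium channel gene, was at 1.02, or 0.86 without Activin+BMP4 replicate 3 and 0.94 without BMP4 replicate 2.

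IRX2 was the single neural ectoderm gene of 17 called. This homeobox factor had 17.1, 16.6 and 20.1 CPM under BMP4, 7.23, 9.96 and 9.03 CPM under Activin+BMP4 and 48.6, 48.9 and 49.2 CPM in untreated cells. It fell in both conditions, and further with Activin+BMP4, with a log2 fold change between them of 1.04 ± 0.16 (edgeR adjusted p = 9.49e-06), 0.92 without Activin+BMP4 replicate 1 and 0.95 without BMP4 replicate 3. SOX3, a factor of pluripotent and neural cells, had the same order, at 11.5 ± 0.406 CPM under BMP4, 6.71 ± 0.896 CPM under Activin+BMP4 and 24.8 to 27.6 CPM in untreated cells. Its log2 fold change between conditions was 0.78 (edgeR adjusted p = 3.37e-04).

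Of 21 pluripotency genes none was called lower and TBX3 alone was called higher, with a median of 0.04 and a summed level of 11100 to 11300 CPM under BMP4 and 11100 to 11400 CPM under Activin+BMP4. NANOG, a core pluripotency factor and a known SMAD2 and SMAD3 target, had 166, 175 and 165 CPM under BMP4, 270, 259 and 260 CPM under Activin+BMP4 and 187, 190 and 185 CPM in untreated cells. The groups did not overlap, and at -0.64 ± 0.037 (edgeR adjusted p = 2.74e-17) the difference was under 2-fold. PRDM14 was at 41.4 ± 2.40 and 62.4 ± 7.77 CPM against 102 to 104 CPM in untreated cells (-0.59, edgeR adjusted p = 2.07e-08), DPPA4 was at -0.19 (0.0053) and FOXD3 at 0.42 (0.0494). POU5F1, SOX2 and DNMT3B were at -0.01, 0.12 and 0.04 and did not pass, and POU5F1 ran from 1560 to 1650 CPM over the 6 libraries. LIN28A, LIN28B, SALL4, ZFP42, L1TD1, ZSCAN10, FGF2, DPPA2, KLF4, KLF5, UTF1 and ESRRB ran from -0.23 to 0.47 and did not pass.

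In the WNT list 3 of 27 genes were called lower and 1 higher, with a median of 0.03. FZD5, a WNT receptor, had 107, 110 and 113 CPM under BMP4, 276, 252 and 241 CPM under Activin+BMP4 and 150, 156 and 144 CPM in untreated cells, on either side of which the conditions lay. Its log2 fold change was -1.22 ± 0.088 (edgeR adjusted p = 3.97e-14). FZD10, of the same family, was at -1.35 at under 1.2 CPM in every library, and WNT5B, a noncanonical ligand, at 1.14, or 0.96 with an edgeR adjusted p of 0.094 without Activin+BMP4 replicate 2. Among 22 FGF and ERK genes FGF8 was the only call. Of 18 Notch genes and 20 immediate early genes none was called at 2-fold by edgeR or DESeq2, and 4 of each were lower without the fold limit and 0 higher (9 of each at an unadjusted p under 0.05). Among them HEY2 was at -0.93, JUN at -0.90 and IER3 at -0.85. Epithelial, mesenchymal, germ cell, cell cycle and p53 target lists had 0 calls at 2-fold by edgeR or DESeq2. In that order their medians were -0.02, -0.05, 0.17, 0.07 and 0.17, with 5, 3, 4, 13 and 7 members at an unadjusted edgeR p under 0.05. Without the fold limit 0, 0, 1, 0 and 0 members passed as lower. As higher, 2 of 20, 0 of 20, 2 of 12, 4 of 25 and 1 of 17 passed. Below the fold limit, CCND1, a cyclin of the G1 phase, was at 0.45 (edgeR adjusted p = 2.09e-10).

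**Figure D4:**
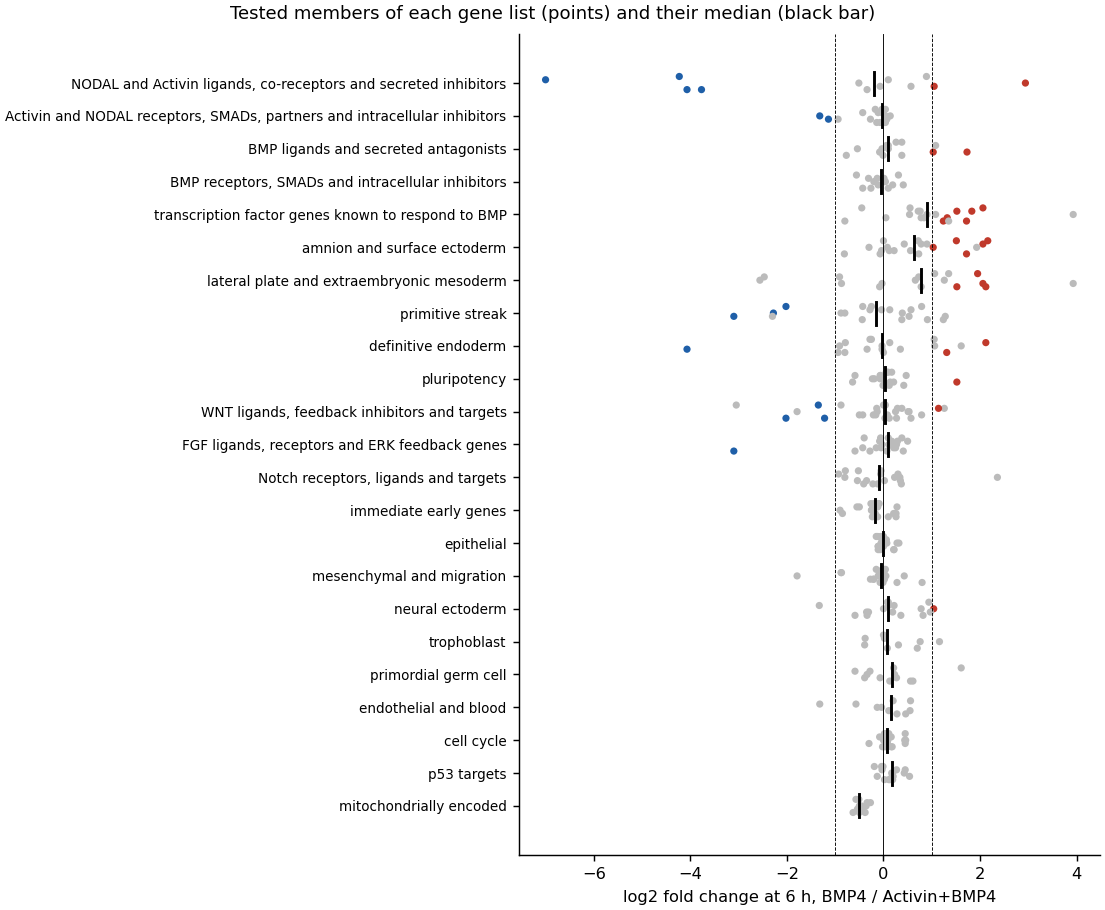
Log2 fold change of BMP4 over Activin+BMP4 at 6 h for every tested member of 23 gene lists, with called members in blue (lower) or red (higher), other members in grey, the median as a black bar and dashed lines at a 2-fold change. Medians lie from -0.50 for mitochondrially encoded genes to 0.90 for BMP-responsive transcription factors.

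Set against untreated cells, 979 genes were called with BMP4 at 6 h (4.99%), 305 lower (1.56%) and 674 higher (3.44%), and 1115 with Activin+BMP4 (5.69%), 346 lower (1.77%) and 769 higher (3.92%). Both comparisons share the 3 untreated libraries, so their values are given side by side and not related to each other. On the log2 scale and in the order BMP4, then Activin+BMP4, LEFTY1 was at -3.12 and 3.88, CER1 at -1.66 and 2.41, NODAL at -2.05 and 1.72, and FGF8 at -1.87 and 1.23, each called in both. LEFTY2 was at -0.87 and 3.35, MIXL1 at -0.79 and 1.49 and PMEPA1 at -0.17 and 1.15, each called with Activin+BMP4 and not with BMP4. With BMP4, LEFTY2 and MIXL1 passed the test and missed only the fold limit (edgeR adjusted p = 0.00317 and 0.0376), and PMEPA1 did not pass (0.118). TMEM63A, at -0.93 and 0.99, passed the test in both but stayed just under the fold limit (edgeR adjusted p = 1e-12 and 1.23e-14), so it was called in neither. Among genes higher with BMP4, NOG was at 6.42 and 4.69, TFAP2A at 3.71 and 1.54 and EBF3 at 3.91 and 1.93, called in both. INHBB was at 2.16 and -0.78 and IGFBP3 at 1.20 and -0.31, called with BMP4 and not with Activin+BMP4. INHBA, at -0.42 and -1.47, was called with Activin+BMP4.

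The other times come from other libraries. At 1 h LEFTY1 was the single gene called between the conditions (0.0051% of genes), at -1.08, while the 62 lower and 37 higher genes had medians of -0.09 and 0.10 at that time. At 12 h 279 genes were called (1.42%; 0.765% lower and 0.658% higher), and 71 of the 99 were among them in the same direction, which is 71.7% of the 6 h calls and 25.4% of the 12 h calls. By direction these were 54 of the 62 lower genes (87.1%) and 17 of the 37 higher genes (45.9%). Whether those shares differ was not tested. At 24 h 787 genes were called (4.01%; 1.6% lower and 2.41% higher), and 64 of the 99 were called in the same direction, 64.6% of the 6 h calls and 8.13% of the 24 h calls. None of the 99 was called in the opposite direction at either time.

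The fit also gave, for each gene, the difference between conditions at 12 h minus that at 6 h. It was called for 27 genes (0.138%), 15 downwards (0.0765%) and 12 upwards (0.0612%), of which 6 were among the 99, and for all 6 the conditions lay further apart at 12 h, among them LEFTY2, CER1, NODAL, TMEM63A and ANGPT1. The number depended on single libraries: it was 43 without Activin+BMP4 replicate 1 at 6 h, 16 without replicate 2, 14 without replicate 3, and 15 without BMP4 replicate 2 at 6 h. At 12 h, BMP4 replicate 1 stood apart from its replicates (chi-square per degree of freedom 18.9 and 24.4, against 4.17 between those replicates). Without that library 17 genes were called for this change, 254 were called at 12 h and 72 of 102 calls at 6 h recurred there. LEFTY2, at -2.01 ± 0.38 (edgeR adjusted p = 0.00178), and CER1, at -2.13 ± 0.35 (edgeR adjusted p = 2.86e-04), stayed called without any of these 7 libraries, with adjusted p-values of at most 0.019 and 0.00599. NODAL and ANGPT1 missed the threshold without some of these libraries. Genes whose 6 h difference was not called later included EBF3, at 1.98 at 6 h, 0.77 at 12 h and -0.97 at 24 h, where only the first was called, and GATA6, at 2.12, 1.22 and -0.80. PHLDA2, an imprinted growth gene, was at -1.27, -0.91 and -0.64. The change from 6 h to 12 h was not called by edgeR for these 3 genes. For EBF3 it was -1.21 (adjusted p = 0.0617), and it was called by DESeq2 (-1.22, adjusted p = 0.00483) and by edgeR without the filter on low counts (adjusted p = 0.00647).

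**Figure D5:**
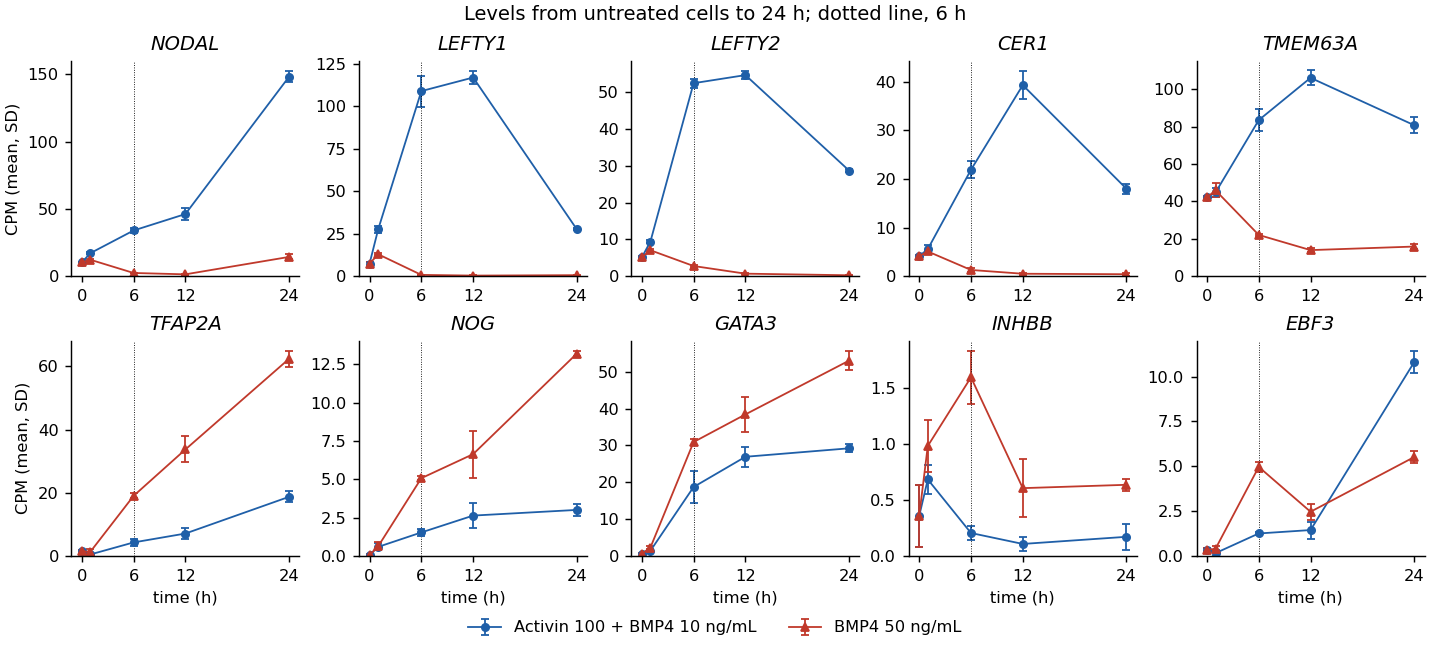
Mean CPM from untreated cells at 0 h to 24 h for 10 genes, with SD bars over 3 libraries, in Activin+BMP4 (blue) and BMP4 (red), each panel with its own linear axis. LEFTY1 and NODAL are wide apart from 6 h on, the TFAP2A and NOG means with BMP4 are highest at 24 h, and the order of the EBF3 means at 24 h is opposite to that at 6 h.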

How the data were processed

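RNA-seq libraries (KAPA RNA HyperPrep, per the labels' protocols) were sequenced from 17 groups of 3. The deposited table holds whole-number counts per gene that the authors made; the submitters' processing notes name cutadapt 1.5, STAR 2.5.2a, RSEM 1.3.0 and GRCh38. What each tool did, which annotation and strand setting were used and whether rows were filtered are not given in the sources used here, nor whether the counts are RSEM estimates rounded to whole numbers, which would share out ambiguous reads among genes.

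Of 58051 gene rows, 56948 (98.1%) had a symbol in the name table, and coordinates came from GENCODE 29 (GRCh38), which held 99% of the IDs. In R 4.3.3, edgeR 4.0.16 filtered genes with filterByExpr (minimum count 10, minimum total 15), keeping 19603 with 99.95% of counts, scaled by TMM and fitted all 51 libraries with 1 mean per group. The quasi-likelihood F test was applied to each contrast, and p-values were adjusted over all tested genes by Benjamini-Hochberg. All folds are BMP4 over Activin+BMP4 unless stated. The fit was also run on simulated counts drawn with its own estimated spread, with changes planted only in genes above a set count. That run cannot speak for calls that rest on few counts or on a library that stands apart.

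The members and the 23 gene lists were chosen with earlier results of these data known. Lists share members. Named genes were the 15 highest and 15 lowest called genes reaching 2 CPM in the condition with more, no overlap and no clone-type symbol (14 genes were eligible on the higher side), called list members, and every tested member of the NODAL, BMP and pluripotency lists. Some genes that the rule takes or that the counts include are not reported here by name. WNT3, TBXT, SOX17, TFAP2C, SOX3, HEY2, JUN, IER3, CCND1, PHLDA2, the genes beside the fold limit and those of the closing observations were named after their values were seen. Counts give relative levels within a gene, and gene length was not used. Exon overlap with a gene on the opposite strand is mentioned for some of the named genes only. Alternatives were RLE or no scaling factors, no or a stricter filter (1 CPM), DESeq2 1.42.0, fewer libraries in the fit, a replicate block, glmTreat against 1.5-fold and leaving out each library. Promoter sequences are RefSeq's.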

Additional observations from a re-analysis of the deposited data

Results flagged for a closer look

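For LEFTY2, CER1, TMEM63A, NODAL and ANGPT1, all called at 6 h, the difference between BMP4 and Activin+BMP4 at 12 h departed from that at 6 h by a test of the change itself, edgeR's quasi-likelihood test on the contrast between times, adjusted over 19603 genes. LEFTY2 went from -4.23 to -6.23, a change of -2.01 on the log2 scale (adjusted p = 0.00178), and CER1 from -4.07 to -6.20, a change of -2.13 (adjusted p = 2.86e-04). TMEM63A went from -1.92 to -2.93, a change of -1.01 (adjusted p = 1.25e-07) that sits at the 2-fold limit. It fell just short of the limit without Activin+BMP4 replicate 2 at 6 h, and was -0.97 and -0.99 without Activin+BMP4 replicate 3 and BMP4 replicate 2.

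NODAL went from -3.77 to -4.97, a change of -1.20 (adjusted p = 0.0302). Its adjusted p was 0.0657 without Activin+BMP4 replicate 3, 0.0627, 0.102 and 0.0682 without BMP4 replicates 1, 2 and 3 at 6 h, and 0.222, with a change of -0.97, without BMP4 replicate 1 at 12 h. ANGPT1, an angiopoietin gene outside the rule for named genes, went from -1.26 to -2.39, a change of -1.14 (adjusted p = 0.0226). Its adjusted p was 0.095 without Activin+BMP4 replicate 3, 0.0524, 0.0561 and 0.0532 without BMP4 replicates 1, 2 and 3 at 6 h, and 0.163, with a change of -0.92, without BMP4 replicate 1 at 12 h.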

How the results depend on the processing

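The 99 calls at 6 h (62.6% lower with BMP4) became 98 with RLE factors and 101 without scaling factors, and the median over all genes moved by at most 0.02. Without the filter on low counts 243 genes were called (163 lower, 80 higher, 67.1% lower), with 159 for the change from 6 h to 12 h and 148 at 1 h, in a table of 41229 genes that includes those with few reads. With the stricter filter 62 were called at 6 h, 72.6% lower, 17 of them higher, 37 recurred at 24 h, 176 were called at 12 h and 401 at 24 h, and 503 and 590 against untreated cells with BMP4 and Activin+BMP4, over 14729 genes. DESeq2 called 86 genes at 6 h, 84 of them shared, and 7 at 1 h. The test against 1.5-fold (glmTreat) called 56 at 6 h, 13 higher and 76.8% lower, and 49 of these were shared. Leaving out each 6 h library in turn gave 80 to 99 calls, 52 to 66 lower, 26 to 37 higher and 14 to 43 for the change from 6 h to 12 h. Without BMP4 replicate 1 at 12 h, an alternative chosen after seeing the data, the last was 17.

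Replicate numbers are shared by all groups, but the labels do not say that a number marks a shared culture or day. Deviations from the group means correlated by 0.029, -0.045 and 0.131 for same-numbered 6 h libraries, and not every library correlated best with its own number. With the replicate block 97 genes were called, all 97 among the 99, and no named call was lost. Of the 44 called genes named by the rule, 44, 44, 43, 33 of 33 with a value, and 43 of 43 kept the call with RLE factors, without scaling, without a filter, with the stricter filter and with DESeq2, while the test against 1.5-fold kept 26 and leaving out single 6 h libraries kept 37 to 42. None of them reversed under any alternative (0 of 44). The fit of the 6 libraries alone (104 calls, 80 shared) lost CHRD and WNT5B, and the fit without times after 12 h (95 calls, 84 shared, 69.5% lower) lost WNT8A, CHRD, WNT5B, DLX6 and DLX3. With 1 line, 3 libraries a group and no arm with Activin or the lower BMP4 dose alone, genes under 2 CPM and changes near 2-fold carry the least firm calls.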

Other observations

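Genes in this section were chosen after their values were seen. LEFTY1, LEFTY2, MIXL1 and TMEM63A lie within 382 kb of chromosome 1 (chr1:225845536-226227054, GRCh38). All 4 were lower with BMP4 at 6 h. In the same span EPHX1 was at -0.27 (edgeR quasi-likelihood adjusted p = 0.00104), SDE2 at -0.17, ACBD3 at -0.04 and H3-3A at -0.01. ENSG00000248322, annotated as overlapping LEFTY2 on its strand, was under 0.3 CPM in every library and not called. No test of the neighbourhood as a whole was made.

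The paralogues EBF2 and EBF3, which share no 50-base word, were called in opposite directions. EBF2 had 0.0667, 0.22 and 0.173 CPM under BMP4 and 2.32, 2.07 and 1.47 CPM under Activin+BMP4, a log2 fold change of -3.65 (edgeR adjusted p = 3.94e-09), where EBF3 was at 1.98. Each gene had at most 0.461 CPM in untreated cells. Lower genes outside the lists included ETS2, a transcription factor, with 44.7, 44 and 42.2 CPM against 93.6, 89.7 and 89.1 CPM, and DACT1, a modulator of WNT signalling, with 18.4, 17.3 and 16.8 CPM against 49.9, 42.8 and 43.3 CPM. Their log2 fold changes were -1.06 and -1.37 (edgeR adjusted p = 9.72e-20 and 3.24e-18), and neither overlapped between conditions.

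Some called genes rested on few counts. FOXQ1, a forkhead factor, had 2 counts over the BMP4 libraries and 67 over Activin+BMP4, 34.5-fold higher in the latter, with an interval of 9.17 to 290 for counting error alone (95%, exact binomial). EN1, a homeobox gene, had 22 counts with BMP4 and 1 with Activin+BMP4, 21.4-fold higher with an interval of 3.46 to 883. KIRREL3 had 13 counts with BMP4 and 0 with Activin+BMP4. With 3 counts over the group put in place of the 0, it was 4.21-fold higher with BMP4. That ratio leaves out the counting error of the 13 counts and is no lower bound. SMIM11 was called lower at -3.06 although Activin+BMP4 replicate 3, at 0.553 CPM, stood at the level of the BMP4 libraries (0.367 to 0.989 CPM) and far from the 6.49 and 8.23 CPM of its own replicates.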
